A study of Homo sapiens with 18 samples.

Results

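A pair of genes with roles in epithelia, FGFBP1 and PADI1, were followed through all 18 samples of a fatty acid experiment in OVCAR5 cells. They were chosen by their measured change: both were lower with stearate than in control cells when samples with and without an inhibitor were pooled, and FGFBP1 was also lower with oleate. They are 2 of the 60483 genes listed, and both were above 0 in each sample and passed the filter on low values, a mean of at least 1 TPM, that left 13789 genes tested. OVCAR5, a human ovarian cancer line long in culture, is labelled wild type and as a high grade serous adenocarcinoma. All cells were seeded, grown for a day and then kept for 24 h in medium with albumin free of fatty acids, to which DMSO as vehicle, 1 µM CAY10566, 50 µM stearate with DMSO, 50 µM stearate with 1 µM CAY10566, 50 µM oleate with DMSO, or 50 µM oleate with 1 µM CAY10566 was added. Each of these 6 conditions had 3 replicates, and DMSO was the vehicle in every comparison with CAY10566. Stearate is a saturated fatty acid, oleate has the same chain length with a single cis double bond, and CAY10566 inhibits SCD1, the desaturase that turns stearate into oleate. The study's methods describe treatment in triplicate and independent in vitro experiments in general, but neither they nor the labels say from which culture or experiment a sequenced replicate came, so p-values measure only the spread between these samples, which may be technical.

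FGFBP1 encodes a secreted protein that binds fibroblast growth factors held on heparan sulfate in the matrix and carries them to their receptors. It is made mainly by epithelial cells and squamous carcinomas, where it has been studied as an angiogenic factor. PADI1 encodes a peptidylarginine deiminase, a calcium-dependent enzyme that converts arginine in proteins to citrulline, and is known above all from the epidermis, where deiminases act on filaggrin and keratins during cornification.

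FGFBP1 (ENSG00000137440) lies on the minus strand of chromosome 4, at chr4:15935577-15938740 of GRCh38, and its canonical transcript has 3 exons and 1351 bases. PADI1 (ENSG00000142623) lies on the plus strand of chromosome 1, at chr1:17205128-17246007, with 16 exons and 3846 bases in its canonical transcript. Neither overlaps another annotated gene. The windows from 250 bases before to 50 bases after the start are shown for both genes, and for PADI2, a neighbour of PADI1 that also fell with stearate. They are shown because the data below concern transcript levels of these 3 genes. PADI3, a nearer neighbour that fell as well, had no matched window. The sequences are from RefSeq (GRCh38.p14), written 5′ to 3′ along the strand of the gene, and lie at chr4:15938691-15938990 for FGFBP1, chr1:17204878-17205177 for PADI1 and chr1:17119402-17119701 for PADI2. Capitals mark the letters that matched 1 of 5 motifs on either strand.
FGFBP1: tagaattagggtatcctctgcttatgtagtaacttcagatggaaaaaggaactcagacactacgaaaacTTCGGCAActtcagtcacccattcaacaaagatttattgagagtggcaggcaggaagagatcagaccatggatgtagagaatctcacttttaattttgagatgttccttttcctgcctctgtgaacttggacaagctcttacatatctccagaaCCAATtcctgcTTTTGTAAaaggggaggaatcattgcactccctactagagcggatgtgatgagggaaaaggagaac
PADI1: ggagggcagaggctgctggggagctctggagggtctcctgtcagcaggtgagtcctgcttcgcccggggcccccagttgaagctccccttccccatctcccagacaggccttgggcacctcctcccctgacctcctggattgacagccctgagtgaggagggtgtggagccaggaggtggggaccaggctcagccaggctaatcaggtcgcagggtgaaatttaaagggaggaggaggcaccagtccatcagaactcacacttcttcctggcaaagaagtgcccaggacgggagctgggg
PADI2: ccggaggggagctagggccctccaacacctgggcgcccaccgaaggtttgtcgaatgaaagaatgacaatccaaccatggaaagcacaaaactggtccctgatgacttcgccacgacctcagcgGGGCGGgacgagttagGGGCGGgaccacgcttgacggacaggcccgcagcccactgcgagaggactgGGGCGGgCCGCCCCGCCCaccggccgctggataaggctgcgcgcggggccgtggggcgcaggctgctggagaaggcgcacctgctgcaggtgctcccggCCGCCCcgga
The motifs were AP-1 (TGANTCA), C/EBP (TTNNGNAA), the CCAAT box (CCAAT), the GC box (GGGCGG) and the TATA box (TATAAA), and no match overlapped a match of another motif in these windows. The FGFBP1 window held 2 C/EBP matches, which began 181 and 16 bases before the start, and 1 CCAAT box 27 bases before it. The PADI1 window held 0 matches, and the PADI2 window held 6 GC boxes. The same letters occur in 36.84% of 35116 RefSeq windows of this length for C/EBP, 34.61% for the CCAAT box, 44.95% for the GC box, 11.53% for the TATA box and 7.71% for AP-1. The G and C content was 42.0% for FGFBP1, 63.0% for PADI1 and 69.0% for PADI2, beside a median of 58.7% over all windows.

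Values are TPM, a gene's estimated share of all transcripts corrected for its length, which sum to the same total in each sample and keep no record of depth, so no counting error can be given. Correlations of log2(TPM + 1) over the tested genes were 0.982 to 0.987 between replicates and 0.978 to 0.987 between samples of different conditions. Of the 9 markers listed for serous ovarian carcinoma, 5 had a mean of at least 1 TPM, with PAX8 at 11.8 TPM, EPCAM at 331 TPM and KRT7 at 426 TPM. WT1, MUC16, SOX17 and ESR1 lay below 1 TPM. Of the 7 markers listed for gastrointestinal epithelium, 3 had a mean of at least 1 TPM, among them the intestinal transcription factor CDX2 at 3.76 TPM and the keratin KRT20 at 1.69 TPM, and CDX1, VIL1, CDH17 and LGALS4 lay below. Their sum was 8.35 to 10.29 TPM with stearate, 7.5 to 10.91 TPM in control cells and 9.23 to 10.59 TPM with oleate, and KRT20 was lower with stearate by −0.41 ± 0.11 (SE, limma adjusted p = 0.0115). The summed level of the serous markers was 712 to 756 TPM with stearate, 833 to 872 TPM in control cells and 820 to 899 TPM with oleate. KRT7 alone averaged 358 TPM with stearate and 456 TPM in control cells. It was the 1 serous marker called lower with stearate of the 5 tested, beside 1.89% of all genes, and 4 were not called. The endothelial list, with 0 of 4 markers at a mean of 1 TPM, summed to 0.57 to 0.92 TPM with stearate and 1.11 to 1.7 TPM in control cells. Of the 7 fibroblast and 6 leukocyte markers, 3 and 1 reached a mean of 1 TPM, the second being CD68 at 94.5 TPM, and PTPRC and CD3E were at or near 0. The fibroblast sums were 45.1 to 54.5 TPM with stearate and 50.6 to 60.9 TPM in control cells, and the leukocyte sums 82.5 to 90.4 and 83.2 to 111 TPM. The part of these markers in the changes below was not tested.

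FGFBP1 was at its highest in cells without added fatty acid. Its level was 20.3, 23.8 and 17.9 TPM in the DMSO samples and 22.4, 20.4 and 20.6 TPM in the CAY10566 samples. With stearate it was 9.18, 11.3 and 8.37 TPM under DMSO and 13.1, 12.8 and 15.5 TPM under CAY10566. With oleate it was 11.4, 14.0 and 12.5 TPM under DMSO and 14.9, 16.3 and 15.4 TPM under CAY10566. All 12 samples with a fatty acid thus lay below the 6 without one. From low to high, the condition means were 9.62 ± 1.51 TPM (SD, n = 3) for stearate+DMSO, 12.6 ± 1.29 for oleate+DMSO, 13.8 ± 1.46 for stearate+CAY10566, 15.6 ± 0.71 for oleate+CAY10566, 20.6 ± 2.96 for DMSO and 21.2 ± 1.07 for CAY10566. In this order oleate+DMSO overlapped stearate+CAY10566, stearate+CAY10566 overlapped oleate+CAY10566 and DMSO overlapped CAY10566, whereas stearate+DMSO lay just below oleate+DMSO, with 11.3 TPM as its highest and 11.4 TPM as the lowest value of the other.

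PADI1 stood at a low level with stearate and at a high level elsewhere. It was 32.7, 34.5 and 31.1 TPM in the DMSO samples and 29.9, 30.1 and 38.4 TPM in the CAY10566 samples. With stearate it was 12.5, 13.9 and 12.5 TPM under DMSO and 13.4, 15.5 and 15.9 TPM under CAY10566. With oleate it was 32.4, 32.8 and 34.1 TPM under DMSO and 39.6, 37.4 and 32.5 TPM under CAY10566. The highest stearate sample, at 15.9 TPM, lay below the lowest of the other 12, at 29.9 TPM, and the oleate samples overlapped the controls. The means were 12.9 ± 0.82 TPM (SD, n = 3) for stearate+DMSO, 14.9 ± 1.32 for stearate+CAY10566, 32.8 ± 1.71 for DMSO, 32.8 ± 4.83 for CAY10566, 33.1 ± 0.87 for oleate+DMSO and 36.5 ± 3.64 for oleate+CAY10566. Neighbours in this order overlapped, except that both stearate conditions lay apart from the other 4. Over all samples PADI1 averaged 27.2 TPM and FGFBP1 15.6 TPM, ranks 4690 and 6601 among the 13789 tested genes.

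**Figure D1:**
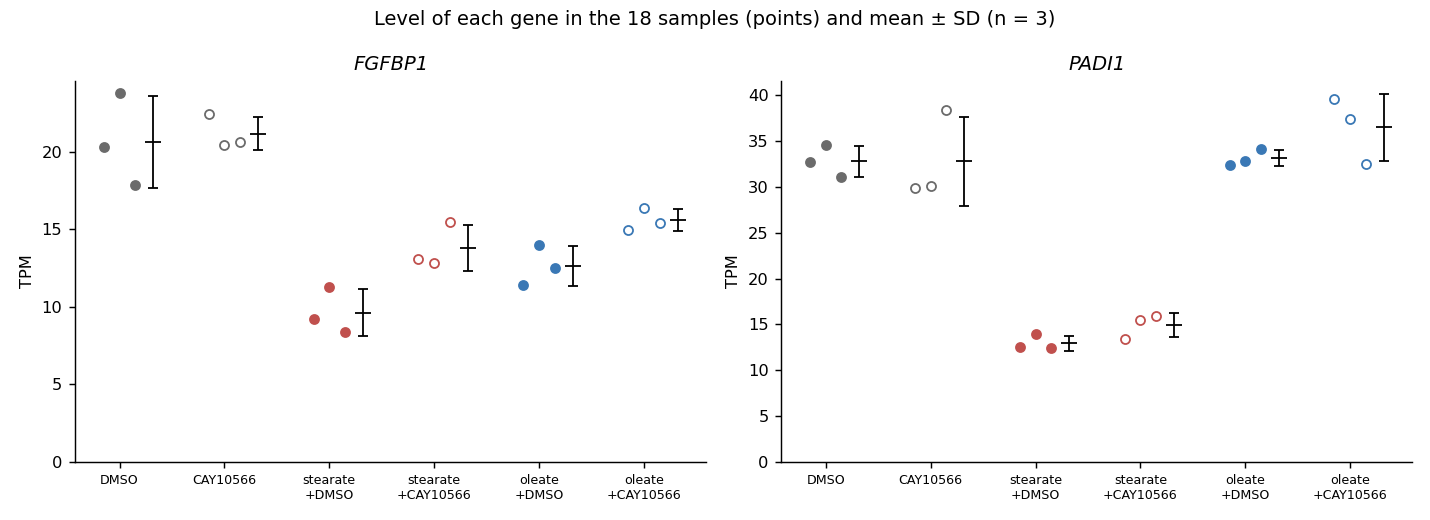
TPM of FGFBP1 and PADI1 (vertical axes, starting at 0) in each condition. Points are single samples, filled for DMSO and open for CAY10566, and the bars give the mean ± SD of 3 replicates; FGFBP1 was lower with both fatty acids and PADI1 with stearate.

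The differences from control cells are given on the log2(TPM + 1) scale with the standard error of the limma fit. They carry no p-value, since the genes were selected on these contrasts, and all of them share the control samples. FGFBP1 was lower with stearate by −1.03 ± 0.11 (SE) among DMSO samples and by −0.59 ± 0.11 among CAY10566 samples. As plain TPM, this was 46.6% and 65.1% of the control mean. With oleate the FGFBP1 differences were −0.66 ± 0.11 and −0.42 ± 0.11, or 61.2% and 73.6% of control. PADI1 differed with stearate by −1.28 ± 0.09 under DMSO and −1.08 ± 0.09 under CAY10566, or 39.5% and 45.6% of control. With oleate its differences were 0.01 ± 0.09 and 0.16 ± 0.09, so that PADI1 stood at 101% and 111% of control.

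The fatty acids were given at the same concentration and time and differ by the double bond. Set directly against oleate, stearate left FGFBP1 lower by −0.37 ± 0.11 (SE) with DMSO and by −0.17 ± 0.11 with CAY10566, on the log2(TPM + 1) scale. With CAY10566 the 95% interval, −0.41 to 0.07, spanned both directions. For PADI1 the same differences were −1.29 ± 0.09 and −1.23 ± 0.09. The gap between stearate and oleate was thus wide for PADI1 and narrow for FGFBP1 on either side of the inhibitor, and the part of it that is independent of the choice of these genes, its change with CAY10566, is tested below.

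Over all genes, limma with Benjamini-Hochberg adjustment called 3.46% higher and 1.89% lower in the pooled stearate comparison, 6.46% higher and 0.435% lower in the pooled oleate comparison, and 1.6% higher and 4.78% lower for stearate against oleate, at an FDR under 0.05 and a fold change over 1.25. Both genes were among those lower with stearate, FGFBP1 was among those lower with oleate, and PADI1 among those lower with stearate than oleate, which restates how they were chosen. FGFBP1 was not called for stearate against oleate. The split of the calls depended on scaling: 477 genes were higher and 261 lower with stearate, but 267 and 373 after TPM was rescaled by size factors, and for oleate 891 and 60 became 306 and 150. For stearate against oleate, 220 higher and 659 lower became 315 and 500. Without CAY10566 replicate 3, 794 genes were higher with stearate, and 1465 were higher and 92 lower with oleate. Rescaling moved the median difference of all genes by 0.12 for oleate against control among DMSO samples, from 0.11 to −0.01. In that comparison PADI1 went from 0.01 to −0.11 and FGFBP1 from −0.66 to −0.79, so PADI1 kept no fixed direction with oleate, whereas FGFBP1 stayed below control. With stearate, the pooled differences became −0.87 for FGFBP1, from −0.81 without rescaling, and −1.24 for PADI1, from −1.18.

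**Figure D2:**
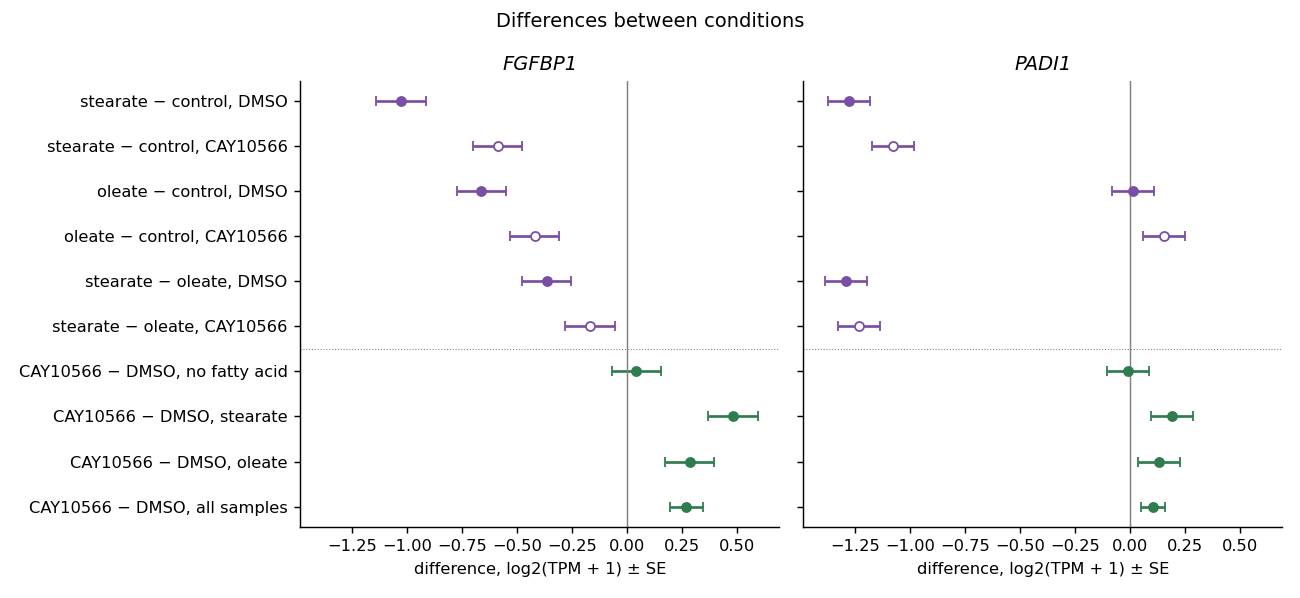
Differences on the log2(TPM + 1) scale ± SE (horizontal axis) for FGFBP1 and PADI1. Violet points above the dotted line are differences between fatty acids and control, filled for DMSO and open for CAY10566 samples, by which the genes were chosen; green points are CAY10566 against DMSO, where FGFBP1 reached 0.48 with stearate.

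Whether SCD1 inhibition changed either gene is independent of how they were picked. FGFBP1 was higher with CAY10566 than with DMSO in both fatty acid groups, and all 3 CAY10566 samples lay above all 3 DMSO samples with stearate and again with oleate. The share of all genes that separated in this way was not counted, so this separation is a description only. Without fatty acid the samples overlapped, and 0 of 3 CAY10566 samples exceeded all DMSO samples. The difference was 0.48 with stearate (95% interval 0.24 to 0.72), 0.28 with oleate (0.05 to 0.52) and 0.04 without fatty acid (−0.20 to 0.28), on the log2(TPM + 1) scale. None passed the adjustment over 13789 genes, with limma adjusted p of 0.393, 0.979 and 0.915. In exact permutation tests of 3 against 3 samples, two-sided, p was 0.1 with stearate, 0.1 with oleate and 0.8 without fatty acid, and 0.1 is the smallest such a test allows. Pooled over the fatty acid groups, FGFBP1 was higher with CAY10566 by 0.27 (95% interval 0.11 to 0.43). The exact permutation of CAY10566 labels within fatty acid groups, two-sided over 8000 labellings, gave p = 0.00475, 1 of 14 exact tests made on both genes. The limma adjusted p over all genes was 0.777.

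For PADI1 the differences with the inhibitor were smaller in size, namely 0.19 with stearate (95% interval −0.01 to 0.39), 0.13 with oleate (−0.07 to 0.33), −0.01 without fatty acid (−0.21 to 0.19) and 0.11 over all groups (−0.01 to 0.22). With stearate and with oleate 2 of 3 CAY10566 samples lay above all DMSO samples, and without fatty acid 1 of 3 did. The two-sided exact permutation tests gave p = 0.2, 0.3, 1.0 and, over all groups, 0.092, and the limma adjusted p were 0.889, 0.979, 0.982 and 0.948. An increase of PADI1 with CAY10566 was not established, and the intervals leave room for one of up to 0.39 with stearate.

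These values stand beside few calls over all genes. CAY10566 changed 0% of the tested genes over all groups, 0% without fatty acid and 0% with oleate, and 0.00725% (1 gene) with stearate, by limma with Benjamini-Hochberg adjustment. At an unadjusted p under 0.05 the shares were 5.42% over all groups, 10.1% without fatty acid, 5.52% with stearate and 4.72% with oleate. FGFBP1 was inside that share in 3 of these comparisons, with unadjusted limma p of 0.00198 over all groups, 0.000551 with stearate and 0.0217 with oleate, and PADI1 in 0 of them.

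The change with a fatty acid was next compared with and without CAY10566, as an interaction. For FGFBP1 the loss with stearate was smaller under CAY10566 by 0.44 (95% interval 0.10 to 0.78), the loss with oleate by 0.24 (−0.09 to 0.58), and the gap between the 2 fatty acids by 0.20 (−0.14 to 0.53). The two-sided exact permutation tests over 400 labellings gave p = 0.12, 0.195 and 0.52, and the limma adjusted p were 0.5, 0.586 and 1. The permutations, here and for PADI1, shuffled CAY10566 labels within each of the 2 groups compared. Their null was no CAY10566 effect in either group, not equal effects, so they are not exact tests of the interaction. For PADI1 the interactions were 0.20 (95% interval −0.08 to 0.48), 0.14 (−0.14 to 0.42) and 0.06 (−0.22 to 0.34), with exact permutation p of 0.225, 0.36 and 0.685 and limma adjusted p of 0.621, 0.71 and 1. Over all genes the stearate interaction called 0.00725% (1 gene), and the oleate interaction and the stearate against oleate interaction 0% each. At an unadjusted p under 0.05 the shares were 9.36%, 10.3% and 3.57%, and of the 6 values above only the FGFBP1 interaction with stearate lay inside, with an unadjusted limma p of 0.0135. Single samples moved these values: leaving out 1 at a time, the FGFBP1 interaction ran from 0.34 to 0.55 with stearate, from 0.14 (without DMSO replicate 2) to 0.34 (without DMSO replicate 3) with oleate, and from 0.11 to 0.31 (without stearate+DMSO replicates 3 and 2) for the gap. For PADI1 it ran from 0.14 to 0.31 (without CAY10566 replicate 3) with stearate, from 0.081 (without oleate+CAY10566 replicate 1) to 0.26 (without CAY10566 replicate 3) with oleate, and from −0.020 to 0.13 for the gap. A different response to the fatty acids with the inhibitor was not established for either gene.

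Once the mean of each condition was removed, it was not shown that FGFBP1 and PADI1 varied together among replicates. Pearson's r was 0.322 over the 18 samples (exact permutation within conditions, 46656 orders, p = 0.146) and Spearman's rho was 0.340 (exact p = 0.182). Without the DMSO and stearate+DMSO samples numbered 2, whose FGFBP1 deviations lay farthest from the median, r was 0.175. Leaving out single samples, it ran from 0.211 (without stearate+DMSO replicate 2) to 0.507 (without CAY10566 replicate 3). After rescaling by size factors r was 0.165 (exact p = 0.543), and −0.15 without the 2 farthest samples. The residual SD on the log2(TPM + 1) scale was 0.14 for FGFBP1 and 0.12 for PADI1.

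PADI1 sits in a cluster of deiminase genes on chromosome 1, in the order PADI2, PADI1, PADI3, PADI4 and PADI6, and both other members that passed the filter fell with stearate as well. PADI3, an enzyme of hair follicle and epidermis, was 11.7, 13.6 and 11.8 TPM in the DMSO samples and 7.79, 6.94 and 6.52 TPM with stearate+DMSO. Under CAY10566 it was 12.5, 11.7 and 13.3 TPM without fatty acid and 7.66, 7.08 and 9.37 TPM with stearate. With oleate it was 10.4, 10.6 and 10.6 TPM under DMSO and 11.3, 11.7 and 11.8 TPM under CAY10566. All 6 stearate samples lay below the other 12. The pooled difference of PADI3 from control was −0.66 ± 0.07 (SE) with stearate (limma with Benjamini-Hochberg adjustment, adjusted p = 2.3e-06) and −0.16 ± 0.07 with oleate (adjusted p = 0.1). The loss with stearate passed the test under DMSO (−0.72, limma adjusted p = 0.000145) and under CAY10566 (−0.59, adjusted p = 0.00117).

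PADI2, the most widely expressed deiminase, was near the limit of the filter, with a mean of 2.14 TPM. It was 2.54, 2.43 and 2.01 TPM in the DMSO samples, 1.66, 1.02 and 1.22 TPM with stearate+DMSO and 2.38, 2.78 and 2.35 TPM with oleate+DMSO. Under CAY10566 the values were 2.18, 2.22 and 3.15 TPM without fatty acid, 1.58, 2.02 and 1.84 TPM with stearate and 2.08, 2.72 and 2.39 TPM with oleate. The stearate and control samples just overlapped, the highest with stearate at 2.02 TPM and the lowest control at 2.01 TPM. The pooled difference was −0.43 ± 0.10 (SE) with stearate (limma adjusted p = 0.00786) and 0.02 ± 0.10 with oleate (adjusted p = 0.928). Taken apart, the loss with stearate passed the test under DMSO (−0.54, limma adjusted p = 0.0211) and missed it under CAY10566 (−0.31, adjusted p = 0.233). The interaction of stearate and CAY10566 was 0.22 (95% interval −0.20 to 0.65) for PADI2, so that a difference between these arms was not shown. Against oleate, stearate left PADI3 lower by −0.50 ± 0.07 (limma adjusted p = 3.32e-05) and PADI2 by −0.44 ± 0.10 (adjusted p = 0.00533).

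PADI4, the deiminase of granulocytes, had a mean of 0.792 TPM and was not tested. It ranged from 0.27 to 0.46 TPM with stearate+DMSO and from 0.59 to 1.3 TPM in the DMSO samples. In the other conditions it was 0.68 to 1.27 TPM with stearate+CAY10566, 0.88 to 1.19 TPM with CAY10566, 0.35 to 0.99 TPM with oleate+DMSO and 0.36 to 1.29 TPM with oleate+CAY10566, so that the stearate and control groups overlapped. PADI6, an oocyte protein, was at 0 TPM in 17 of 18 samples. The canonical transcripts of PADI1, PADI2 and PADI3 shared no stretch of 50 bases, and the longest run common to PADI1 and PADI3 was 30 bases. The number of deiminase genes that changed is a description, since this cluster was looked at because of PADI1.

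**Figure D3:**
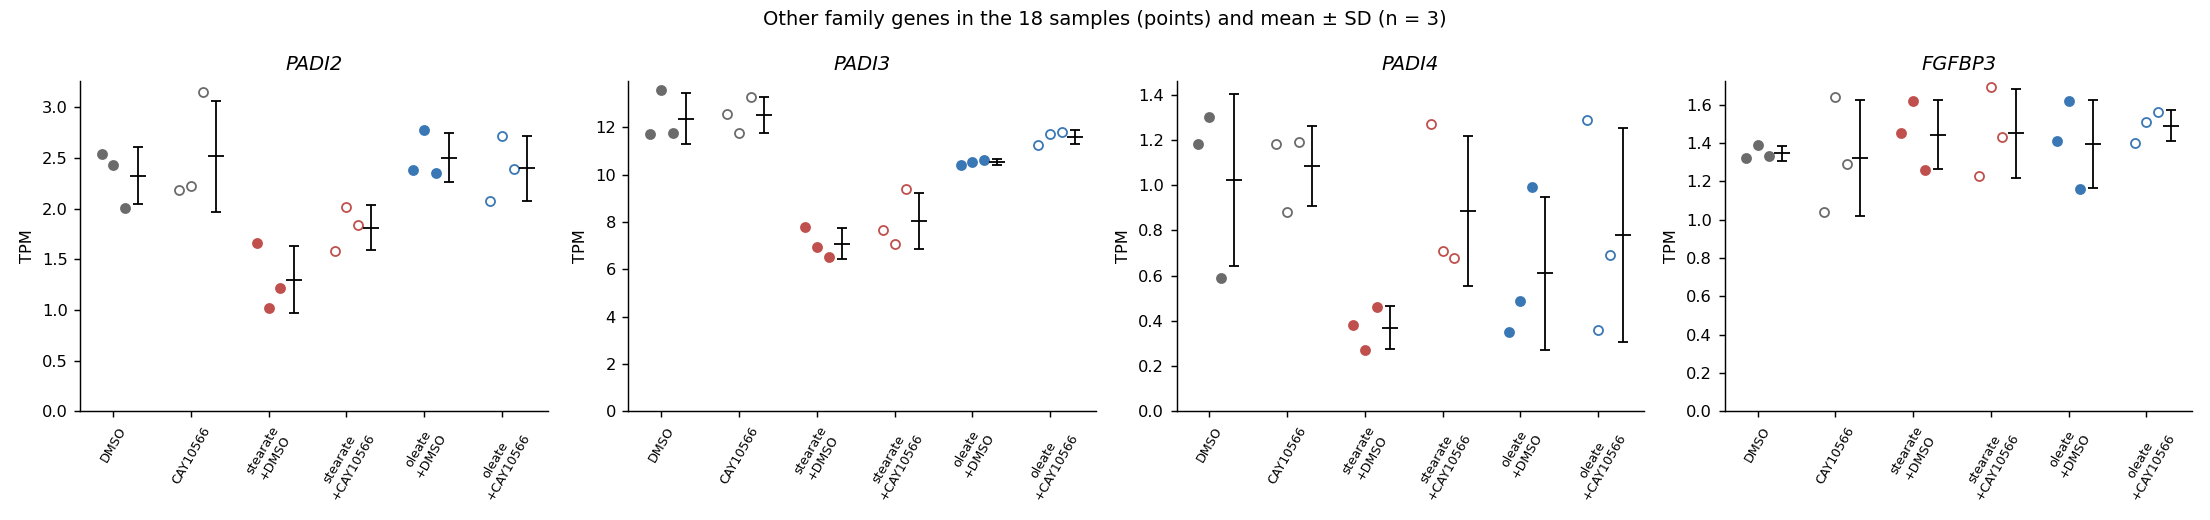
TPM (vertical axes, starting at 0) of PADI2, PADI3, PADI4 and FGFBP3 in each condition, with points for single samples, filled for DMSO and open for CAY10566, and bars for the mean ± SD of 3 replicates. PADI3 was lower in all 6 stearate samples than in the other 12, and FGFBP3 stayed between 1.04 and 1.69 TPM.

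Other genes around PADI1 were measured as well. Within 500 kb, 29 genes were listed and 11 tested, and 2 were lower with stearate (PADI2 and PADI3) and 0 higher, while 0 were called with oleate, beside the 1.89% lower and 3.46% higher with stearate and the 6.46% higher and 0.435% lower with oleate over all genes. The others were CROCC, ATP13A2, SDHB, RCC2, ARHGEF10L, the small nuclear RNA genes RNU1-4 and RNU1-2, whose reads cannot be told apart, and ENSG00000238142 and ENSG00000235241. SDHB, a subunit of succinate dehydrogenase that starts 151 kb from PADI1, differed by −0.03 ± 0.04 (SE) with stearate. RCC2, 235 kb away on the other side, differed by −0.04 ± 0.04 with stearate and by 0.20 with oleate, which passed the FDR (limma adjusted p = 0.00276) but not the fold limit. Around FGFBP1, 20 genes were listed and 4 tested (CC2D2A, FBXL5, FAM200B and TAPT1), and 0 were called with either fatty acid, FBXL5 with oleate (0.19, limma adjusted p = 0.0155) again passing only the FDR. Of its own family, FGFBP2, also on chromosome 4, was listed at 0 TPM in every sample. FGFBP3, on chromosome 10, was between 1.04 and 1.69 TPM and differed by 0.07 ± 0.09 with stearate (limma adjusted p = 0.608) and 0.07 ± 0.09 with oleate (adjusted p = 0.61).

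**Figure D4:**
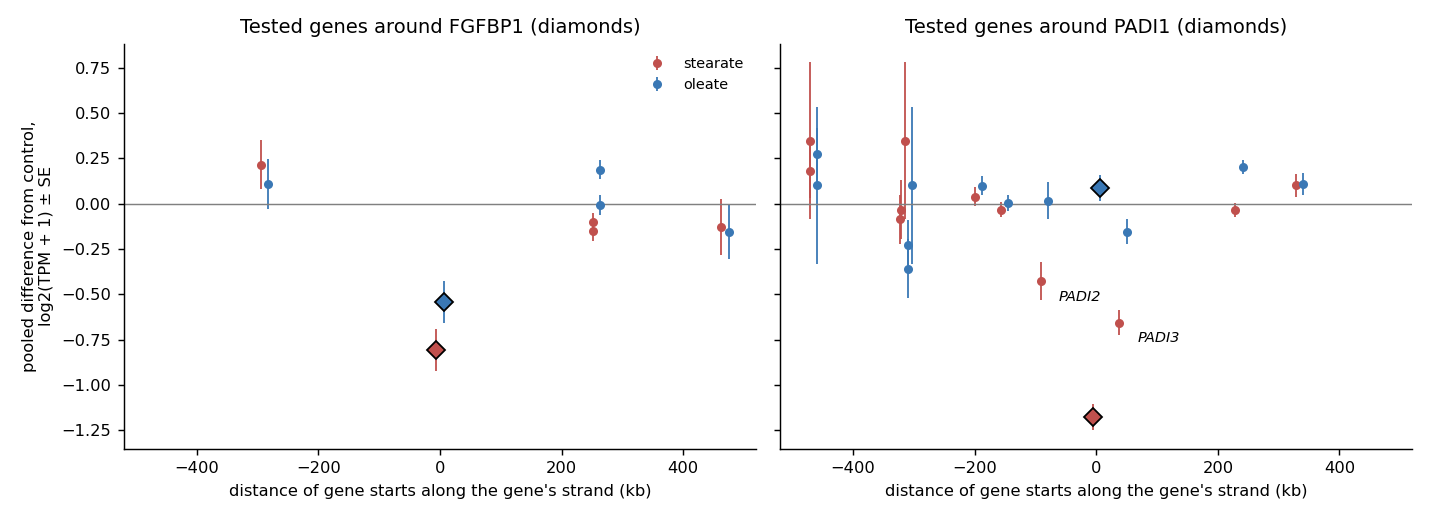
Pooled differences from control on the log2(TPM + 1) scale ± SE (vertical axis) for the tested genes within 500 kb of FGFBP1 and of PADI1, against the distance between gene starts in kb (horizontal axis), in red for stearate and blue for oleate, with the colours set slightly apart. Diamonds are FGFBP1 and PADI1 themselves; around PADI1, PADI2 and PADI3 were lower with stearate, and around FGFBP1 the 4 neighbours stayed between −0.16 and 0.21.

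Transcripts of the ligands FGFBP1 could carry were scarce in these cells, and ligand protein was not measured. Of 18 fibroblast growth factor genes, 1 reached a mean of 1 TPM, FGF21, an endocrine factor at 1.07 TPM, and it was not called with either fatty acid. Receptor transcripts were present: FGFR1 averaged 26.7 TPM, FGFR4 21.7 TPM and FGFR3 6.93 TPM, and FGFR2 0.567 TPM. Of the 10 receptors, syndecans, glypicans and related genes that were tested, 0 were called with stearate, beside 3.46% of all genes higher and 1.89% lower, and 0 were lower and 2 higher with oleate, the heparan sulfate proteoglycans HSPG2 (perlecan, 0.36 ± 0.10 SE, limma adjusted p = 0.0145) and SDC3 (0.33 ± 0.10, adjusted p = 0.0276), in a comparison that called 6.46% of all genes higher and 0.435% lower, and 306 in place of 891 genes higher after rescaling. Their median difference was 0.04 with stearate, beside 0.06 over all genes, and 0.15 with oleate, beside 0.09. Against oleate, stearate left 2 lower and 0 higher, beside 4.78% and 1.6% of all genes: HSPG2 (−0.46 ± 0.10, limma adjusted p = 0.00301) and the syndecan SDC1 (−0.49 ± 0.07, adjusted p = 5.12e-05), which was named after its value was seen. The median there was −0.11, beside −0.03 over all genes. Neither call with oleate against control held after rescaling, at 0.26 for HSPG2 (limma adjusted p = 0.04) and 0.24 for SDC3 (adjusted p = 0.1), and HSPG2 missed the threshold without oleate+DMSO replicate 3, at a difference of 0.31. SDC3 kept its call in 16 of 25 alternatives and lost it also with no filter (adjusted p = 0.0713) and without any 1 of 7 samples: DMSO replicates 1 and 2, CAY10566 replicates 1 and 2, oleate+DMSO replicate 2, and oleate+CAY10566 replicates 1 and 3.

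Factors known to act on the FGFBP1 promoter, namely AP-1, C/EBP and SP proteins and the EGF receptor upstream of them, made a list of 15 genes, all tested. With stearate, where 3.46% of all genes were higher and 1.89% lower, 2 were higher and 0 lower: FOS, an AP-1 subunit (0.50 ± 0.09 SE, limma adjusted p = 0.000613), and ATF3, a stress-induced partner of AP-1 proteins (0.36 ± 0.05, adjusted p = 0.000141). With oleate, beside 6.46% and 0.435% of all genes, 2 were higher and 0 lower, EGFR (0.40 ± 0.08, limma adjusted p = 0.00372) and SP1 (0.38 ± 0.10, adjusted p = 0.0126). Set against oleate, stearate left 1 gene lower, EGFR (−0.63 ± 0.08, limma adjusted p = 2.54e-05), and 1 higher, FOS (0.40 ± 0.09, adjusted p = 0.00305), beside 4.78% and 1.6% of all genes. After rescaling, ATF3 (0.30, limma adjusted p = 0.000392), EGFR (0.30, adjusted p = 0.00749) and SP1 (0.28, adjusted p = 0.0314) against control still passed the FDR but fell under the fold limit. The list's median was 0.08 with stearate and 0.10 with oleate, beside 0.06 and 0.09 over all genes, and FGFBP1 itself was lower with both fatty acids.

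The partners of PADI1 in skin were mostly silent in OVCAR5 cells. Of 38 genes for deiminase substrates and the cornified envelope, 13 were tested. With stearate 1 was higher and 2 were lower, beside 3.46% and 1.89% of all genes, and with oleate 0 were called in either direction, beside 6.46% and 0.435%. KRT6A, a keratin of stressed epithelium, was lower with stearate by −0.90 ± 0.16 (SE, limma adjusted p = 0.000792) at a mean of 1.56 TPM, and is uncertain because near-identical keratin genes could share its reads. SCEL (sciellin, an envelope precursor) was lower by −0.46 ± 0.05 (limma adjusted p = 1.03e-05) at 18.4 TPM. SPRR2D, a small proline-rich envelope protein with close copies beside it, was higher by 0.43 ± 0.09 (limma adjusted p = 0.0028). The median over the 13 genes was −0.09 with stearate, beside 0.06 over all genes, and 0.05 with oleate, beside 0.09. Against oleate, stearate left 4 lower and 1 higher, beside 4.78% and 1.6% of all genes, with a median of −0.21, beside −0.03. SPRR2D was again the higher one (0.44), and KRT6A (−0.998) and SCEL (−0.46) were joined by the plakin PPL (−0.44 ± 0.08, limma adjusted p = 0.000888) and the calcium-binding S100A3, a known deiminase substrate (−0.40 ± 0.08, adjusted p = 0.00189). PPL and S100A3 were named after their values were seen.

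Of 36 genes of epithelial junctions and identity, 35 were tested, and with stearate 5 were lower, 2 higher and 28 not called, beside 1.89% of all genes lower and 3.46% higher. The lower ones were the simple-epithelium keratins KRT18 (−0.44 ± 0.04 SE, limma adjusted p = 6.7e-07) and KRT7 (−0.35 ± 0.03, adjusted p = 1.15e-06), ITGB4 of the hemidesmosome (−0.47 ± 0.07, adjusted p = 6.88e-05), its laminin ligand chain LAMA3 (−0.37 ± 0.07, adjusted p = 0.000968) and the cadherin CDH3 (−0.34 ± 0.08, adjusted p = 0.00415). The higher ones were the epithelial transcription factors GRHL1 (0.39 ± 0.11, limma adjusted p = 0.0156) and GRHL2 (0.32 ± 0.08, adjusted p = 0.00926, at the fold limit). With oleate 1 was higher, the desmosomal plaque gene DSP (0.35 ± 0.09, limma adjusted p = 0.0106), and 0 were lower, beside 6.46% and 0.435% of all genes. CDH3, GRHL2 and DSP were named after their values were seen. The differences with stearate ran from −0.47 to 0.39, with a median of −0.08, beside 0.06 over all genes, and the median with oleate was 0.09, the same as over all genes. Several of these calls lay near the fold limit and fell short of it in some alternatives, each still passing the FDR. LAMA3 did so without CAY10566 replicate 3, at −0.30, and CDH3 without any 1 of 3 samples (DMSO replicate 3, stearate+DMSO replicate 3 and stearate+CAY10566 replicate 2), at −0.32 to −0.31. GRHL2 kept its call in 18 of 25 alternatives and fell short after rescaling, at 0.27, and without any 1 of 6 samples: DMSO replicates 2 and 3, CAY10566 replicate 1, stearate+DMSO replicates 1 and 2, and stearate+CAY10566 replicate 3. DSP with oleate fell short after rescaling, at 0.25, and without DMSO replicate 1, at 0.30. Against oleate, stearate left 5 lower and 1 higher, beside 4.78% and 1.6% of all genes, with a median of −0.16, beside −0.03. Among the lower ones were LAMA3 (−0.61), ITGA6, which pairs with ITGB4 (−0.44), KRT7 (−0.37) and DSP (−0.32), and the higher one was the transcription factor ELF3 (0.34). ITGA6 and ELF3 were named after their values were seen. ELF3 fell short of the fold limit without oleate+DMSO replicate 2 or oleate+CAY10566 replicate 1, at 0.32 and 0.29, and DSP kept this call in 16 of 25 alternatives, falling short after rescaling, at −0.28, and without any 1 of 8 samples: stearate+DMSO replicate 3, stearate+CAY10566 replicates 1 and 2, the 3 of oleate+DMSO, and oleate+CAY10566 replicates 1 and 2.

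The pattern of PADI1 over the 18 samples was close to that of several other genes. By Pearson's r of log2(TPM + 1), among 10141 genes with a mean of at least 5 TPM, those most like it were F3 (tissue factor, r = 0.986), ANXA2 (annexin A2, 0.980), TXNRD2 (mitochondrial thioredoxin reductase, 0.977), TNS4 (a tensin of focal adhesions, 0.977), PTK6 (a kinase of epithelial cells, 0.974), TM4SF1 (0.973), C1orf116 (0.973) and PLAT (tissue plasminogen activator, 0.971). They share with PADI1 the same libraries and the low level with stearate by which PADI1 was chosen, so these values are a description. Their pooled differences with stearate ran from −1.54 for F3 to −0.25 for ANXA2, and with oleate from −0.02 to 0.16. For FGFBP1 the likeness was looser: AKR1C2 (an aldo-keto reductase, r = 0.892), SLC29A2 (a nucleoside transporter, 0.887), ENSG00000270168 (0.876), LINC03040 (0.876), HPCAL1 (0.863), IFITM1 (0.850), ITGB4 (0.848) and KRT8 (0.841). Their differences from control ran from −0.72 to −0.21 with stearate and from −0.32 to −0.08 with oleate. Of these 8, 5 were called lower with stearate, beside 1.89% of all genes, SLC29A2, HPCAL1 and KRT8 staying under the fold limit. With oleate 0 were called, beside 0.435% of all genes lower, 5 staying under the fold limit and 3 missing the FDR (AKR1C2, ITGB4 and KRT8). Of the 8 most like PADI1, 7 were called lower with stearate and 0 called with oleate. Nothing is read from these counts, since the genes were picked for following FGFBP1 or PADI1 over the same samples. AKR1C2, the closest, was −0.72 ± 0.11 (SE) with stearate and −0.29 ± 0.11 with oleate. Between FGFBP1 and PADI1 r was 0.663 over all samples, which placed PADI1 131st of the 10141 genes in the order for FGFBP1 and FGFBP1 732nd in the order for PADI1. This value holds the low level with stearate by which both were chosen.

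**Figure D5:**
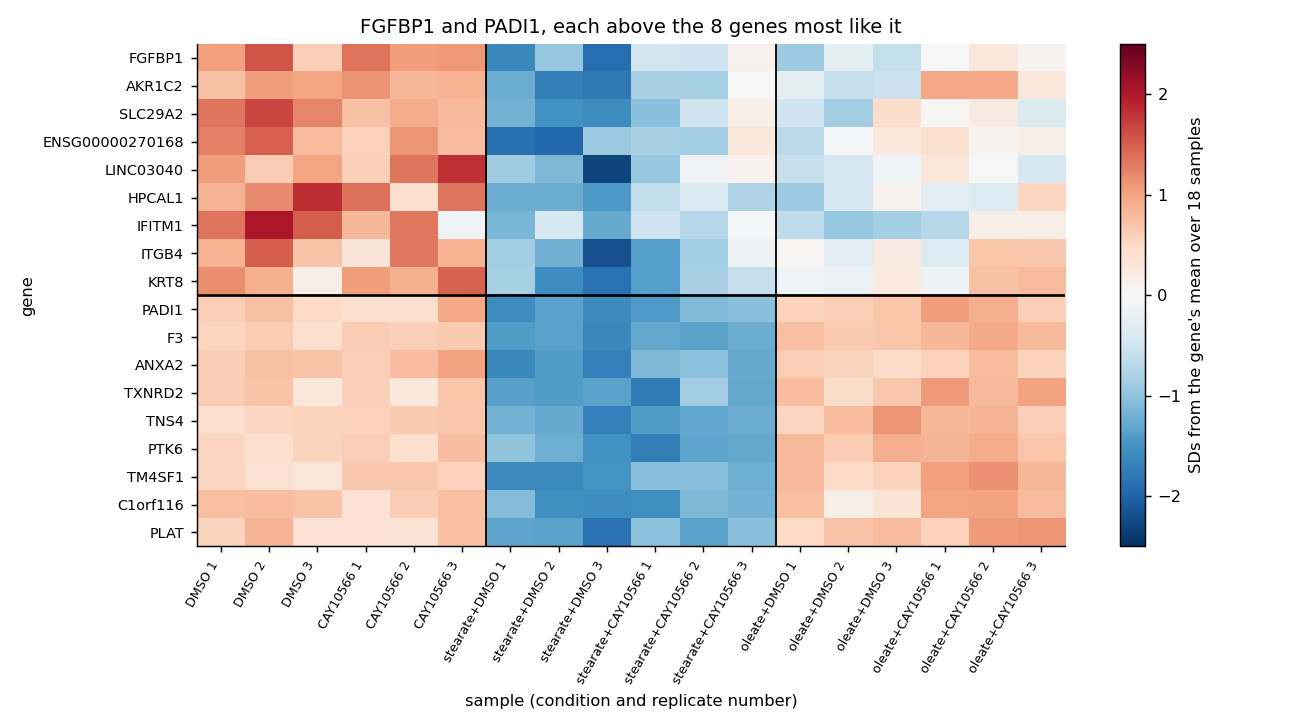
Level of FGFBP1 and PADI1 and of the 8 genes most like each (one line per gene) in the 18 samples (columns), as SDs from the gene's own mean of log2(TPM + 1), red above and blue below. Vertical lines part samples without fatty acid, with stearate and with oleate; the PADI1 group was low with stearate, and the FGFBP1 group was highest without fatty acid.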

How the data were processed

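RNA of 18 OVCAR5 samples was sequenced by the authors as stranded mRNA libraries with paired-end reads, trimmed with Trim Galore, aligned with STAR 2.7.1a to GRCh38 with the Ensembl annotation, and quantified with RSEM. The authors deposited TPM per gene, from which depth cannot be recovered; 1 line without a gene was left out. Symbols matched 93.1% of identifiers. Groups and replicate numbers came from the labels.

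Genes averaging 1 TPM or more were tested with limma 3.58.1 (R 4.3.3; lmFit, eBayes with a trend) on log2(TPM + 1), in a model of 6 conditions, a model of 3 pooled fatty acid groups, and CAY10566 with fatty acid as a covariate. A call needed an FDR (Benjamini-Hochberg) under 0.05 together with a fold change over 1.25. The log2(TPM + 1) scale understates changes of low genes. Exact permutation tests were made in Python 3.11.15 (numpy 2.4.6), and figures in matplotlib 3.10.9. The procedure was tested on simulated data. Gene models are from GENCODE 44 and promoters from RefSeq, both on GRCh38; promoters of 3 of the 4 genes looked up were matched, and PADI3 was not.

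FGFBP1, PADI1 and the gene lists were chosen with earlier results of these data known. Genes were named by a rule: the families of both genes, tested genes within 500 kb, at most 4 called genes per list with the largest change, and the 8 genes most correlated with each. Alternatives were a pseudocount of 0.1, no filter or one at 5 TPM, eBayes without the trend, rescaling by size factors (median of ratios), a replicate block, leaving out each sample, fitting only the samples compared, and CAY10566 as a covariate. Taking the median of all genes off the pooled differences of both genes was added after seeing the data.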

Additional observations from a re-analysis of the deposited data

How the results depend on the processing

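The log2 differences of FGFBP1 and PADI1 kept their sign in 788 of 798 recomputed values, and 0 of the tested ones crossed the threshold. The 10 that changed sign were of small differences: PADI1 with oleate (pooled, and among DMSO samples), both genes with CAY10566 and no fatty acid, and the PADI1 stearate against oleate interaction. PADI1 with oleate, pooled, became −0.015 after rescaling and −0.0023 with the median of all genes taken off, and among DMSO samples it ran from −0.022 (without DMSO replicate 3) to 0.051 (without DMSO replicate 2). Rescaling by size factors moved PADI1 with oleate among DMSO samples to −0.11 and turned PADI2 with oleate, pooled, to −0.056. It gave 267 genes higher with stearate, and 306 higher and 150 lower with oleate. Leaving out each sample in turn, CAY10566 without fatty acid ranged from −0.052 to 0.14 for FGFBP1 and from −0.12 to 0.051 for PADI1, the PADI1 stearate against oleate interaction from −0.020 to 0.13, PADI2 with oleate from −0.019 to 0.074, and FGFBP3 with stearate against oleate from −0.034 to 0.027. The same omissions gave 373 to 794 genes higher with stearate, and 633 to 1465 higher and 45 to 92 lower with oleate, each highest without CAY10566 replicate 3. They gave 0 to 2 genes called for CAY10566 without fatty acid and with stearate, and 0 to 2 for each of the 3 interactions. A pseudocount of 0.1 called 1 gene for CAY10566 without fatty acid, 2 for the stearate interaction and 1 for the oleate interaction. With no filter, 4 genes were called for CAY10566 with stearate, 2 with oleate, 2 for the stearate interaction, 1 for the oleate interaction and 2 for that of stearate against oleate. A mean TPM of at least 5, which left fewer genes to test, gave 30 genes lower with oleate and 142 higher with stearate than oleate. Without the trend, the stearate interaction called 0 genes and the oleate interaction 1, and after rescaling the stearate interaction called 0. With only the 6 samples compared, CAY10566 called 2 genes with stearate and 1 with oleate. The causes of these changes were not tested. For the other named genes, 1485 of 1539 recomputed values kept direction and call, 44 lost the call and 10 changed sign.

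Correlations of deviations from condition means lay between −0.18 and 0.10 over the 45 pairs of samples with the same number and between −0.12 and 0.17 over pairs with different numbers, so the numbers were not taken to pair the samples; 9 of 18 samples correlated best with their own number. With the replicate block, the stearate interaction called 0 genes, and limma adjusted p for FGFBP1 with CAY10566 over all groups was 0.837. The block changed no call of a gene named here. TPM gives no depth, so precision rests on the 3 replicates alone.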
